A study of Mus musculus with 5 samples.

Results

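The Hippo pathway genes described here are 9 members of 12579 genes measured in all libraries: the coactivators Yap1 and Wwtr1 (which encodes TAZ), the transcription factor Tead1, and 6 genes known as targets of YAP, TAZ and TEAD, namely Ctgf, Cyr61, Ankrd1, Amotl2, Ajuba and Axl. They were chosen by name, with Ctgf (Ccn2) and Cyr61 (Ccn1) under these older symbols. Cells dissociated from advanced pancreatic tumours were sequenced one by one on the 10x Genomics 3′ platform, whose counts of tagged molecules (unique molecular identifiers, UMIs) come from close to the 3′ end of each transcript. The study asked how a block in cholesterol synthesis bears on TGFβ signalling and on the differentiation of the carcinoma. KPPCN tumours (2 libraries, KPPCN 1 and KPPCN 2) were compared with KPPC tumours (3 libraries, C3, D3 and H2), all from mice aged 7 to 8 weeks. Both genotypes lack both copies of Trp53 in cells of the Pdx1-Cre lineage, which forms the pancreas, and KPPCN mice lack Nsdhl in that lineage as well. NSDHL is a sterol dehydrogenase of late cholesterol synthesis. These alleles are background knowledge, since the labels give only the names of the genotypes. The labels speak of 3 mice per genotype, and a further KPPCN tumour was not analysed here. The codes C3, D3 and H2 do not match the numbers in the KPPC labels, and each library was taken as 1 tumour. The p-values between genotypes thus measure the spread between these libraries. Those between classes within libraries, and of the interaction, measure the spread of the class difference from library to library.

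The Hippo pathway is a kinase cascade in which MST kinases (Stk3, Stk4) activate LATS kinases (Lats1, Lats2), which phosphorylate YAP and TAZ and keep them out of the nucleus. In the nucleus YAP and TAZ bind TEAD factors, which recognise the DNA motif GGAATG, and switch on genes for matrix proteins, cytoskeletal proteins and regulators that feed back on the pathway. In the adult pancreas YAP is known from duct cells and stellate cells, and in mouse models of pancreatic carcinoma it is required for tumour growth.

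Promoter windows show where the TEAD motif stands at 4 of the target genes that were called between cell classes. The windows run from 250 bases before to 50 bases after the start of transcription, were taken from RefSeq on GRCm38.p6, and are printed 5′ to 3′ on the strand of the gene, with the motif in capitals, GGAATG or, on the opposite strand, CATTCC. Ankrd1 (chr19:36119795-36120094, minus strand) holds it at -210 and -123 relative to the start. Cyr61 (chr3:145649936-145650235, minus strand) holds it at -103. Amotl2 (chr9:102717554-102717853, plus strand) holds it at -65, and Axl (chr7:25788684-25788983, minus strand) at -233. The windows of Amotl2 and Ankrd1 lie wholly inside the annotated genes (chr9:102716672-102733418 and chr19:36111961-36120099). The RefSeq start of each is therefore downstream of the first transcribed base of that gene.
Ankrd1: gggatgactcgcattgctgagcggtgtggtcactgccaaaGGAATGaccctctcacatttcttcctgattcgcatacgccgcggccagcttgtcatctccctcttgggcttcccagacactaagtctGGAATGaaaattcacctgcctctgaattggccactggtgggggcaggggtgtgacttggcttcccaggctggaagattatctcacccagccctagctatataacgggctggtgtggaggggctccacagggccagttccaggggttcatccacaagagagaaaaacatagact
Cyr61: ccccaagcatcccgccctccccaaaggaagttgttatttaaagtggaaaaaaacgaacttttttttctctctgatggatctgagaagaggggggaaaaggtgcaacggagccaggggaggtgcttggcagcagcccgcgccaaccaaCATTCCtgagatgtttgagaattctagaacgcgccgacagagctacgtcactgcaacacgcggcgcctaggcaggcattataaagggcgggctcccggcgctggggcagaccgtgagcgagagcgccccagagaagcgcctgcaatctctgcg
Amotl2: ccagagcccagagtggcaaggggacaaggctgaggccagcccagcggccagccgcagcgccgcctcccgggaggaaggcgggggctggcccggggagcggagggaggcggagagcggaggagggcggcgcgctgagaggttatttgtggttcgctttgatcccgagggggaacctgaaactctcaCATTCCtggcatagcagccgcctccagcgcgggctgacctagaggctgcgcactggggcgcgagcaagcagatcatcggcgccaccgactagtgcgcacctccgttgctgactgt
Axl: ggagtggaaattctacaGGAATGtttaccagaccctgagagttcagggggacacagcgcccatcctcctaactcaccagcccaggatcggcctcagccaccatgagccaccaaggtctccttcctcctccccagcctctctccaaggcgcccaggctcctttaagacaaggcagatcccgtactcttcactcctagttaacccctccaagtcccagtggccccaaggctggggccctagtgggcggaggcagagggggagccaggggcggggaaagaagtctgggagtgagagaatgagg
A window was found for 7 of the 9 members (not for Ctgf and Tead1), and all 7 held at least 1 copy. Of all 32851 windows in the table, 4817 (14.7%) held it. A match of 6 letters describes the sequence and is no measure of binding. The other 3 members with a window have the motif at -141 (Yap1), at -186 and -164 (Ajuba), and at -136 in 1 window of Wwtr1, or -170 in a second window that overlaps the first.

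The 5 libraries differed in depth and in cell types before any of these genes is considered. Of 17771 deposited cells, 16455 were kept, and 26 barcodes occurred in more than 1 library. KPPCN 1 stood apart: its kept cells held a median of 2175 UMIs, against 21593 UMIs in KPPCN 2 and 17204, 19019.5 and 17821 UMIs in KPPC C3, D3 and H2. In KPPCN 1, 49.95% of kept cells were leukocyte-like although CD45-positive cells had been depleted, against 0.957% in KPPCN 2 and 2.81%, 1.60% and 2.11% in the KPPC libraries. Cells were clustered without the 9 members and without the pathway lists described later, and clusters were named from marker genes of other functions. The class called tumour-like was named from Cdkn2a, Hmga2, Krt8, Krt18, Cdkn2b, Igf2bp2 and Igf2bp3, and made up 5.50% and 72.4% of the cells in KPPCN 1 and KPPCN 2, against 13.6%, 4.60% and 3.00% in KPPC C3, D3 and H2. These 7 genes do not set it apart from epithelial-like cells: they summed to 7744 and 3248 CPM in KPPCN and 6637, 8009 and 6209 CPM in KPPC tumour-like cells, against 10150 and 8860 CPM in KPPCN and 9775, 10160 and 12370 CPM in KPPC epithelial-like cells. The keratins Krt8 (log2 difference -1.52) and Krt18 (-1.37) were lower, and Cdkn2a (1.91) and Hmga2 (1.89) higher, in tumour-like cells. Whether epithelial-like cells are tumour cells as well was not tested. The name tumour-like therefore does not set tumour cells against non-tumour cells. The 13 markers from which epithelial-like cells were named summed to 933 and 170.0 CPM in KPPCN and 512, 1741 and 922 CPM in KPPC tumour-like cells, against at least 13960 CPM in epithelial-like cells of any library. Over all kept cells Nsdhl was detected in both genotypes, at 14.1 and 11.7 CPM in KPPCN, compared with 15.2, 18.3 and 16.8 CPM in KPPC. CPM is the gene's UMIs per 1000000 UMIs of the summed cells. Epithelial-like cells had 33.7 and 34.6 CPM in KPPCN, compared with 30.4, 23.3 and 27.5 CPM in KPPC. Tumour-like cells had 19.6 and 11.85 CPM in KPPCN, compared with 11.97, 11.0 and 9.87 CPM in KPPC. In neither class did both KPPCN libraries lie below the KPPC libraries. The sources used here do not give the deleted part of Nsdhl, and a tag at the 3′ end does not check the labels.

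Levels are given below as CPM of summed cells of 1 class in 1 library, wherever a library held at least 20 cells of the class. The coactivators differed from each other in where they stood highest. Yap1 (chr9:7931999-8004596, minus strand, GRCm38) averaged 58.5 ± 19.2 CPM in endothelial-like cells (SD, n = 4 libraries), 39.2 ± 5.64 CPM in fibroblast-like, 38.3 ± 10.4 CPM in tumour-like and 32.99 ± 9.75 CPM in epithelial-like cells (n = 5 each). The ranges of neighbouring classes overlapped from endothelial-like down to pericyte-like cells, so that Yap1 gave no clear order among the classes outside the blood lineage. Wwtr1 (chr3:57455649-57575910, minus strand) averaged 256 ± 25.8 CPM in endothelial-like cells (n = 4) and 185 ± 51.8 CPM in tumour-like cells (n = 5). Pericyte-like cells followed at 99.8 ± 18.5 CPM (n = 3), with no overlap with the tumour-like range, then fibroblast-like cells at 87.5 ± 10.4 CPM, mesothelial-like cells at 83.1 ± 6.99 CPM and epithelial-like cells at 55.9 ± 5.26 CPM. The epithelial-like range of Wwtr1 lay below those of the other 5 classes.

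Tead1 (chr7:112679318-112906807, plus strand), the DNA-binding partner of YAP and TAZ, stood highest in cells of the stroma. It averaged 158 ± 18.2 CPM in pericyte-like (n = 3) and 144 ± 20.2 CPM in fibroblast-like cells, and 85.5 ± 16.8 CPM in tumour-like and 66.0 ± 16.2 CPM in epithelial-like cells (n = 5 each). Ranges of neighbouring classes overlapped throughout this order, but the fibroblast-like range (119 to 167 CPM) lay above the tumour-like one (55.7 to 95.8 CPM). Lymphocytes, in which these 3 genes were low, gave the background: in T/NK-like cells of KPPCN 1 Tead1 had 5.49 CPM, Wwtr1 7.06 CPM and Yap1 2.74 CPM.

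The secreted matricellular proteins encoded by Ctgf and Cyr61 had different main sources. Ctgf (chr10:24595442-24598683, plus strand) was highest in pericyte-like cells, the mural cells of vessels, with 567, 379 and 182 CPM in the C3, D3 and H2 libraries of KPPC, a range above that of every other class. Fibroblast-like cells averaged 96.2 ± 18.5 CPM, epithelial-like cells 67.4 ± 25.6 CPM and tumour-like cells 43.4 ± 29.7 CPM, with overlapping ranges. KPPCN libraries held too few pericyte-like cells to give a level. Cyr61 (chr3:145646976-145649981, minus strand) averaged 204 ± 105 CPM in endothelial-like cells (n = 4) and 177 ± 33.2 CPM in fibroblast-like cells (n = 5), and epithelial-like cells followed at 94.9 ± 26.6 CPM. The epithelial-like range (63.5 to 124 CPM) lay below the fibroblast-like one (129 to 220 CPM) but overlapped the endothelial-like one (104 to 312 CPM).

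Ankrd1 (chr19:36111961-36120099, minus strand), which encodes an ankyrin repeat protein best known from striated muscle, was highest on average in tumour-like and epithelial-like cells. It averaged 234 ± 144 CPM in tumour-like and 138 ± 81.5 CPM in epithelial-like cells (n = 5 each), with overlapping ranges. The next class, endothelial-like, averaged 18.3 ± 27.9 CPM (n = 4), and its highest value of 60.1 CPM lay below every epithelial-like value but above the lowest tumour-like one (53.9 CPM in KPPC H2). Fibroblast-like cells had 8.52 ± 6.29 CPM. After each cell was thinned to 1000 UMIs, 0.579% of 4319 fibroblast-like cells held an Ankrd1 UMI, close to the 0.575% of 2435 lymphocyte-like cells, a share read here as background. Before thinning these shares were 6.98% and 1.12%, at median depths of 12550 and 1494 UMIs. Thinning left out 121 fibroblast-like and 248 lymphocyte-like cells.

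Amotl2 and Ajuba, targets whose products feed back on the pathway, differed in order between fibroblast-like and epithelial-like cells. Amotl2 (chr9:102716672-102733418, plus strand) encodes an angiomotin-like protein that binds YAP at cell junctions, and averaged 91.6 ± 22.5 CPM in fibroblast-like cells against 24.1 ± 3.91 CPM in epithelial-like and 17.5 ± 4.24 CPM in tumour-like cells. Ajuba (chr14:54567472-54577558, minus strand) encodes a LIM-domain protein that inhibits LATS kinases, and averaged 42.7 ± 7.38 CPM in epithelial-like and 37.8 ± 6.26 CPM in pericyte-like cells. Lower Ajuba ranges, with no overlap, began with endothelial-like cells at 25.5 CPM on average, followed by tumour-like cells at 19.6 ± 3.78 CPM, and fibroblast-like cells had 7.99 ± 1.84 CPM.

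Axl (chr7:25757273-25788705, minus strand) encodes a receptor tyrosine kinase for the ligand Gas6. Its levels formed 2 tiers. Fibroblast-like cells averaged 260 ± 49.5 CPM, tumour-like cells 248 ± 66.9 CPM, pericyte-like cells 213 ± 28.7 CPM and mesothelial-like cells 203 ± 39.8 CPM, with overlapping ranges. Epithelial-like cells averaged 34.6 ± 19.2 CPM, below that whole tier. In thinned cells 24.2% of tumour-like and 21.8% of fibroblast-like cells held an Axl UMI (81.1% and 79.4% before thinning, at median depths of 20050 and 12550 UMIs), against 1.99% of 2213 epithelial-like cells (26.9% before thinning, median depth 19140 UMIs). Lymphocyte-like cells had 2.09% (5.37% before thinning), so the pooled epithelial share was no higher than that of lymphocytes, nearly all of which came from KPPCN 1.

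**Figure D1:**
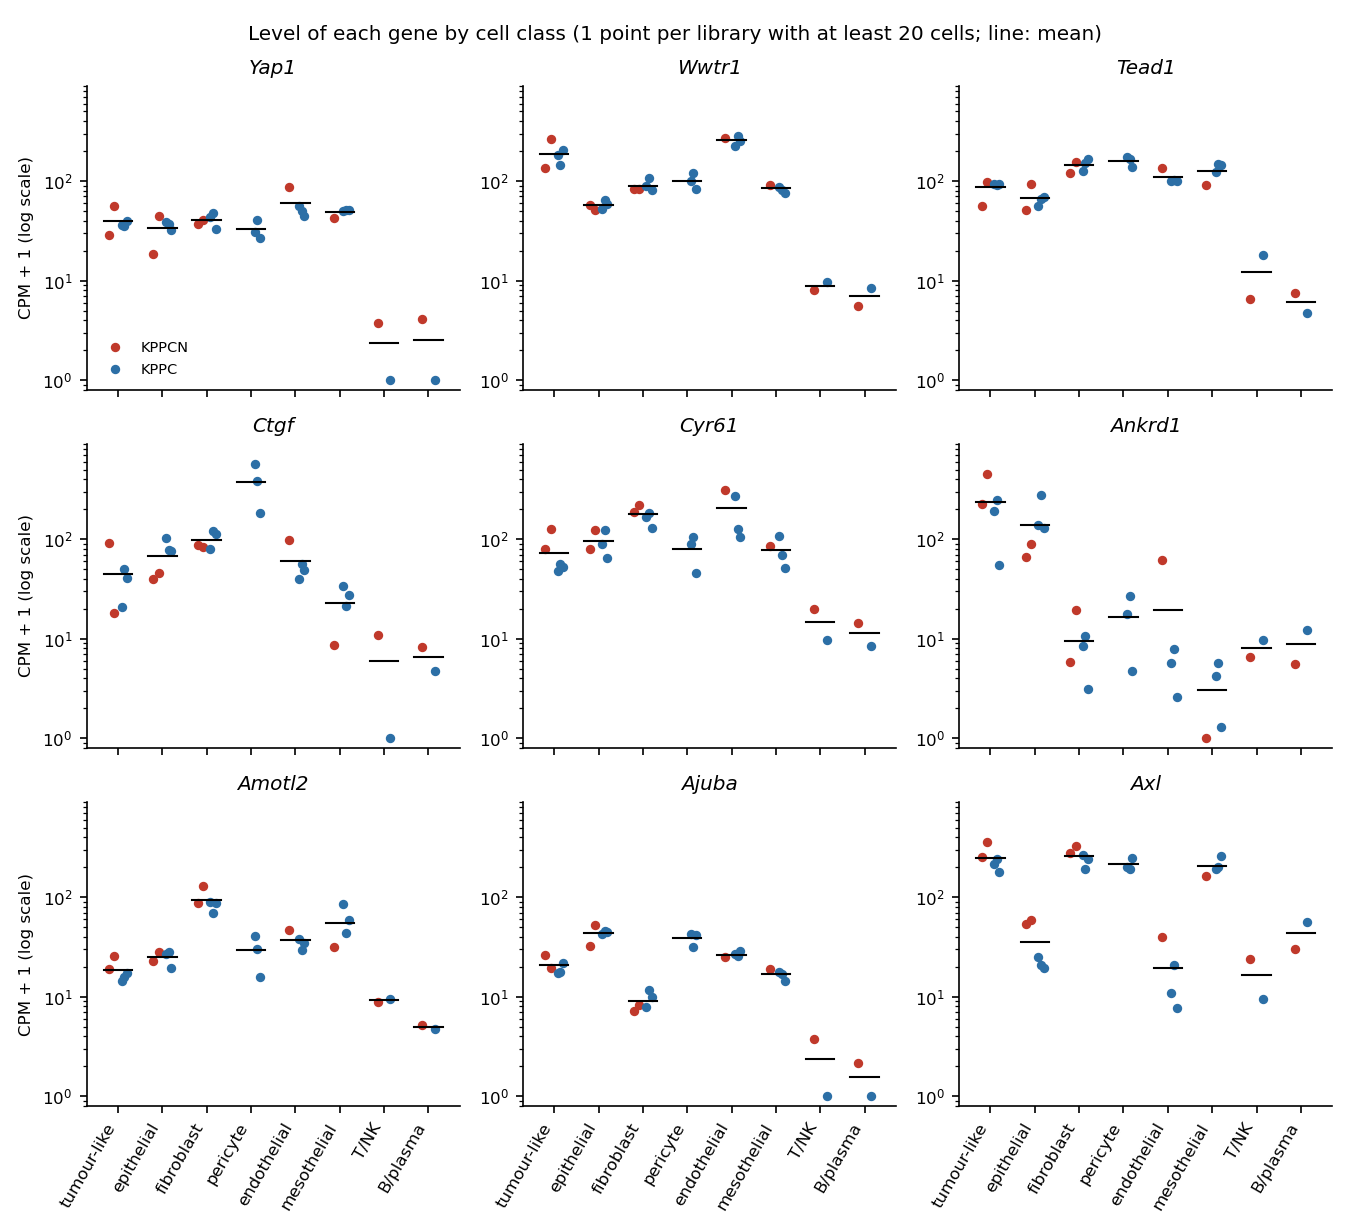
Level of each of the 9 genes by cell class, in CPM plus 1 on a log axis, with 1 point per library of at least 20 cells, KPPCN libraries in red to the left of KPPC libraries in blue, and a line at the mean. Wwtr1 is high in endothelial-like and tumour-like cells, Ankrd1 in tumour-like and epithelial-like cells, and Axl in fibroblast-like, tumour-like, pericyte-like and mesothelial-like cells.

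Tumour-like cells were first compared with epithelial-like cells of the same library. Axl and Wwtr1 rose, Ajuba, Amotl2 and, less stably, Cyr61 fell, and Yap1, Tead1, Ctgf and Ankrd1 did not pass the test. Sums per library and class were compared with limma on log2(CPM + 5), with library as a term and Benjamini-Hochberg adjustment over all genes tested. This called 5 of 9 members, where 41.3% of all 10011 genes were called (1973 higher and 2157 lower in tumour-like cells). The median log2 difference was 0.09 over the members and 0.0039 over all genes.

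Wwtr1 had 133 and 263 CPM in tumour-like cells of KPPCN 1 and 2 and 181, 145 and 205 CPM in those of KPPC C3, D3 and H2, against 56.5 and 50.4 CPM and 51.3, 63.3 and 58.0 CPM in epithelial-like cells of the same libraries. Every tumour-like value was above every epithelial-like value. The log2 difference was 1.53 ± 0.16 (SE; adjusted p = 0.000138). Yap1 had 27.5 and 55.4 CPM in tumour-like cells of KPPCN 1 and 2 and 34.9, 34.6 and 38.8 CPM in those of the KPPC libraries, against 17.4 and 43.2 CPM and 37.7, 35.7 and 31.0 CPM in epithelial-like cells. The classes overlapped, with the tumour-like value higher in 3 of 5 libraries. The log2 difference of Yap1 was 0.09 ± 0.12 (adjusted p = 0.567).

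Tead1 was higher in tumour-like cells in 5 of 5 libraries. It had 55.7 and 95.8 CPM in KPPCN and 92.6, 90.5 and 92.7 CPM in KPPC tumour-like cells, against 50.01 and 92.2 CPM in KPPCN and 55.5, 64.6 and 67.9 CPM in KPPC epithelial-like cells. The gap was wide in the 3 KPPC libraries and narrow in both KPPCN libraries. The log2 difference of 0.34 ± 0.12 just missed the threshold (adjusted p = 0.0503), and passed it under 8 alternatives, among them without KPPCN 2 (0.42, adjusted p = 0.0223) and at clustering resolution 2 (0.62, adjusted p = 0.00829).

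Axl had 255 and 355 CPM in KPPCN and 213, 242 and 176 CPM in KPPC tumour-like cells, against 53.3 and 57.6 CPM in KPPCN and 24.0, 19.7 and 18.5 CPM in KPPC epithelial-like cells. No tumour-like value came near an epithelial-like one. The log2 difference of 2.80 ± 0.16 (adjusted p = 3.70e-06) was the widest of the 9 members. Ajuba moved the other way in 5 of 5 libraries. It had 25.6 and 18.2 CPM in KPPCN and 16.4, 16.9 and 21.1 CPM in KPPC tumour-like cells, against 31.5 and 51.9 CPM in KPPCN and 41.2, 45.2 and 43.9 CPM in KPPC epithelial-like cells (log2 difference -1.03 ± 0.15, adjusted p = 0.000662). Thinning each cell to 1000 UMIs gave Ajuba a log2 difference of -0.80 (adjusted p = 0.215).

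Amotl2 was lower in tumour-like cells in 5 of 5 libraries by a smaller step. It had 18.1 and 24.4 CPM in KPPCN and 13.5, 14.9 and 16.4 CPM in KPPC tumour-like cells, against 21.7 and 27.4 CPM in KPPCN and 25.6, 27.4 and 18.4 CPM in KPPC epithelial-like cells, with a log2 difference of -0.50 ± 0.13 (adjusted p = 0.0164). The call was lost without KPPC C3 (-0.40, adjusted p = 0.0942) or KPPC D3 (-0.41, adjusted p = 0.0789). Cyr61 had 78.6 and 126 CPM in KPPCN and 46.4, 55.9 and 51.3 CPM in KPPC tumour-like cells, against 78.3 and 121 CPM in KPPCN and 87.9, 124 and 63.5 CPM in KPPC epithelial-like cells. The fall was seen in the 3 KPPC libraries, whereas the classes had nearly equal values in both KPPCN libraries. The log2 difference of -0.53 ± 0.18 (adjusted p = 0.0427) no longer passed without KPPC C3 (-0.43, adjusted p = 0.150), D3 (-0.36, adjusted p = 0.158) or H2 (-0.56, adjusted p = 0.0886), and was also lost under 6 other alternatives, with adjusted p between 0.0534 and 0.0956. Ctgf was lower in 4 of 5 libraries, KPPCN 1 being the exception, and its log2 difference of -0.85 ± 0.37 (adjusted p = 0.0960) came to -1.27 without KPPCN 1 (adjusted p = 0.00633).

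Ankrd1 was not ordered by class within libraries. It had 225 and 455 CPM in KPPCN and 190, 245 and 53.9 CPM in KPPC tumour-like cells, against 65.2 and 87.9 CPM in KPPCN and 138, 275 and 127 CPM in KPPC epithelial-like cells. The tumour-like value was the higher one in 3 of 5 libraries, both KPPCN libraries and KPPC C3 (log2 difference 0.50 ± 0.43, adjusted p = 0.390).

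Fibroblast-like cells differed from epithelial-like cells in all 9 members, 7 higher and 2 lower, in a comparison that called 71.0% of all 10356 genes. The median log2 difference was 0.77 over the members and -0.0074 over all genes. Axl (3.17 ± 0.16, adjusted p = 4.83e-07), Amotl2 (1.81 ± 0.14, adjusted p = 7.03e-06) and Tead1 (1.29 ± 0.08, adjusted p = 1.85e-06) rose most, in 5 of 5 libraries each. Cyr61 (1.03 ± 0.10, adjusted p = 2.27e-05) and Wwtr1 (0.77 ± 0.08, adjusted p = 3.68e-05) rose in 5 of 5 libraries as well. Ankrd1 (-3.41 ± 0.29, adjusted p = 1.32e-05) and Ajuba (-1.72 ± 0.09, adjusted p = 4.59e-07) fell in 5 of 5. Amotl2 had 85.6 and 129 CPM in KPPCN and 88.4, 68.6 and 86.3 CPM in KPPC fibroblast-like cells, and Tead1 119 and 156 CPM in KPPCN and 126, 150 and 167 CPM in KPPC, all above the epithelial-like values given above. Ankrd1 had 4.86 and 18.6 CPM in KPPCN and 7.40, 9.67 and 2.09 CPM in KPPC fibroblast-like cells, all below every epithelial-like value.

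Ctgf (0.58 ± 0.18, adjusted p = 0.0183) and Yap1 (0.37 ± 0.10, adjusted p = 0.00888) rose in 4 of 5 libraries and lost the call under several alternatives. In cells thinned to 1000 UMIs Ctgf had 0.24 (adjusted p = 0.305) and Yap1 0.44 (adjusted p = 0.203). Without KPPC D3, KPPC H2 or KPPCN 2 the value of Ctgf was 0.51 (adjusted p = 0.0707), 0.48 (adjusted p = 0.103) or 0.51 (adjusted p = 0.0516). Without trimmed-mean scaling, which moved the median of all genes to -0.15 in this comparison, Ctgf had 0.42 (adjusted p = 0.0633) and Yap1 0.21 (adjusted p = 0.122).

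Tumour-like cells, set against fibroblast-like cells, shared a high level of Axl with them and differed in most other members. The comparison called 7 of 9 members, 3 higher and 4 lower, where 62.3% of all 10028 genes were called. The median log2 difference was -0.24 over the members and 0.011 over all genes. Ankrd1 (3.88 ± 0.21, adjusted p = 4.60e-06), Wwtr1 (0.85 ± 0.15, adjusted p = 0.00198) and Ajuba (0.82 ± 0.14, adjusted p = 0.00172) rose, in 5 of 5 libraries each. Amotl2 (-2.25 ± 0.11, adjusted p = 3.33e-06), Cyr61 (-1.47 ± 0.14, adjusted p = 7.60e-05) and Tead1 (-0.88 ± 0.12, adjusted p = 0.000404) fell in 5 of 5, and Ctgf (-1.40 ± 0.29, adjusted p = 0.00387) in 4 of 5.

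Axl had 255 and 355 CPM in KPPCN and 213, 242 and 176 CPM in KPPC tumour-like cells, against 280 and 325 CPM in KPPCN and 266, 192 and 239 CPM in KPPC fibroblast-like cells. The classes overlapped, with a log2 difference of -0.24 ± 0.14 (adjusted p = 0.165). Yap1 likewise did not pass (-0.20 ± 0.13, adjusted p = 0.202), except without KPPCN 2 (-0.32, adjusted p = 0.0371).

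**Figure D2:**
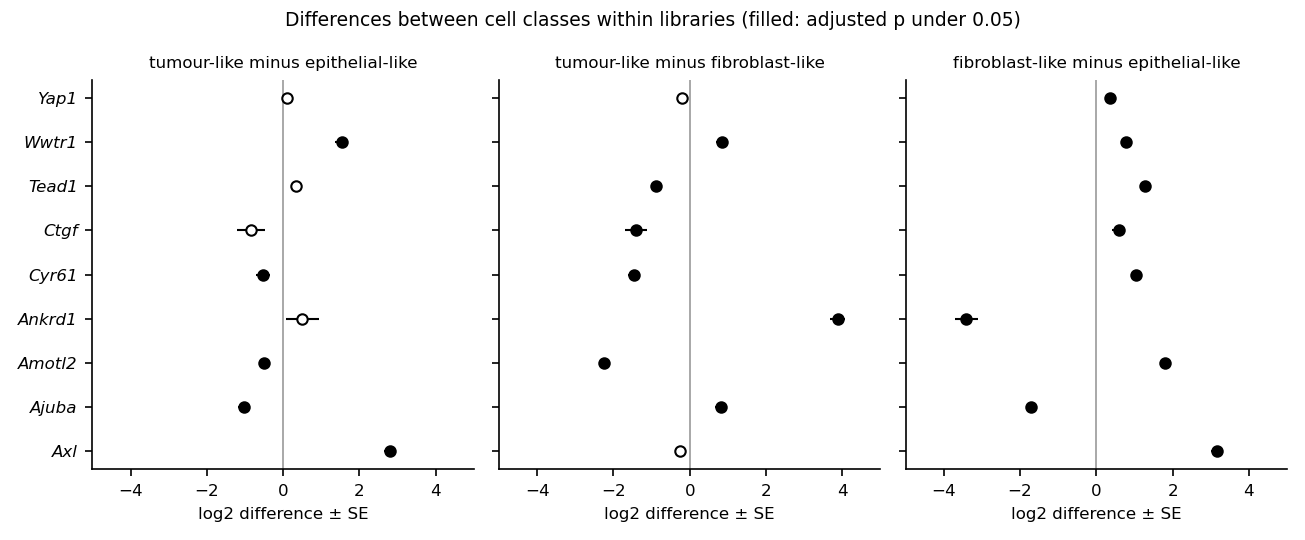
Log2 difference (± SE) of each of the 9 genes between cell classes within libraries, for tumour-like against epithelial-like, fibroblast-like against epithelial-like and tumour-like against fibroblast-like cells, with filled points where the adjusted p was under 0.05. Axl is high in both tumour-like and fibroblast-like cells, and Ankrd1 has its widest differences against fibroblast-like cells.

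Genes induced by tissue dissociation moved with some of these members. Of 11 immediate early and heat shock genes, 0 rose and 8 fell in tumour-like against epithelial-like cells, 8 rose and 1 fell in fibroblast-like against epithelial-like cells, and 0 rose and 10 fell in tumour-like against fibroblast-like cells. Their medians were -0.57, 0.65 and -1.37 on the log2 scale. Cyr61, Ctgf and Amotl2 had the same signs in the same comparisons, and the part of dissociation in their values was not tested. Markers of other cell types differed in level as well. The 12 fibroblast markers summed to 1667 and 1898 CPM in KPPCN and 1442, 553 and 638 CPM in KPPC tumour-like cells, against 1708 and 511 CPM in KPPCN and 879, 366 and 251 CPM in KPPC epithelial-like cells. The sum was slightly lower in tumour-like cells of KPPCN 1 and higher in those of the other 4 libraries. Their part in the class differences was not tested.

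Between tumour-like and epithelial-like cells the wider pathway was called about as often as other genes. Of 23 listed Hippo kinases, scaffolds and upstream regulators, 21 could be tested, with 4 higher and 5 lower (median log2 difference -0.077), beside 41.3% of all genes called. Wwc1 (KIBRA), a scaffold that helps activate LATS kinases, had 10.9 and 11.7 CPM in KPPCN and 11.2, 18.4 and 19.7 CPM in KPPC tumour-like cells, against 66.3 and 51.9 CPM in KPPCN and 58.1, 55.5 and 56.0 CPM in KPPC epithelial-like cells. The classes were widely separated in every library (log2 difference -1.76 ± 0.14, adjusted p = 2.65e-05). Frmd6, a FERM-domain protein of the same upstream layer, rose (1.49 ± 0.15, adjusted p = 8.73e-05), and the kinase gene Taok3 (-0.88 ± 0.11) and Amot (-0.83 ± 0.14), a paralog of Amotl2, fell.

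Of 17 further YAP and TAZ targets, 16 were tested, with 4 higher and 3 lower (median -0.21). F3, which encodes tissue factor, had 13.5 and 5.28 CPM in KPPCN and 1.85, 17.2 and 1.31 CPM in KPPC tumour-like cells, against 71.8 and 110 CPM in KPPCN and 66.0, 93.9 and 84.9 CPM in KPPC epithelial-like cells. Its log2 difference of -2.99 ± 0.26 (adjusted p = 3.70e-05) was wider than that of any of the 9 members. Igfbp3, an IGF-binding protein, rose by 2.53 ± 0.39 (adjusted p = 0.00103), and the ligand gene Tgfb2 rose by 0.75 ± 0.26 (adjusted p = 0.0497), while Crim1, a membrane protein that binds BMPs, fell (-0.88 ± 0.15). Lats2 and Ptpn14 belong to both lists. Of 5 TEAD partners 3 were tested, and 0 passed.

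In fibroblast-like against epithelial-like cells 12 of 22 Hippo genes tested were higher and 5 lower, and of 16 targets tested 7 were higher and 6 lower, beside 71.0% of all genes called. Vgll3, a cofactor that binds TEADs in place of YAP, had 111 and 177 CPM in KPPCN and 95.3, 126 and 153 CPM in KPPC fibroblast-like cells, and at most 1.84 CPM in epithelial-like cells of any library. It rose by 4.40 ± 0.14 on the log2 scale (adjusted p = 6.48e-08), and 2 of 4 TEAD partners tested rose and 2 fell. Ccdc80, a secreted matrix protein (5.70 ± 0.26), and Tgfb2 (2.95 ± 0.13) rose too, whereas Wwc1 (-3.20 ± 0.09) and Nt5e, the ectoenzyme CD73 (-2.66 ± 0.13), fell. Tumour-like cells, set against fibroblast-like cells, had 4 Hippo genes higher and 9 lower of 22, and 5 targets higher and 8 lower of 16, beside 62.3% of all genes called. Vgll3 (-4.37 ± 0.18) and Ccdc80 (-5.26 ± 0.22) fell there, and Nt5e (2.26 ± 0.30) and the stress gene Gadd45a (1.86 ± 0.14) rose.

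Epithelial-like cells consisted of 2 clusters between which the members differed. Cluster 3 (1259 cells) was led by keratin genes and Epcam, and cluster 6 (961 cells) held the gastric genes Tff2 and Ctse among its leading genes. A total of 4 libraries, KPPCN 1 and the 3 KPPC libraries, had at least 20 cells of both. Ankrd1 had 124 CPM in cluster 3 of KPPCN 1 and 298, 385 and 209 CPM in that of KPPC C3, D3 and H2, against 10.5 CPM and 22.8, 125 and 19.4 CPM in cluster 6. Within each library cluster 3 was several times higher. Ctgf had 65.6 CPM in KPPCN 1 and 170, 101 and 97.7 CPM in KPPC cells of cluster 3, against 14.7 CPM and 51.6, 44.5 and 44.7 CPM in cluster 6, and its ranges in the clusters did not overlap.

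Ajuba followed the same pattern, with 47.5 CPM in KPPCN 1 and 62.6, 53.7 and 55.2 CPM in KPPC cells of cluster 3, against 16.8 CPM and 25.7, 33.6 and 29.0 CPM in cluster 6. Yap1 did not: it had 15.8 CPM in KPPCN 1 and 41.3, 37.8 and 30.3 CPM in KPPC cells of cluster 3, against 18.9 CPM and 35.0, 32.8 and 31.96 CPM in cluster 6, and was higher in cluster 3 in 2 of 4 libraries. The other 8 members were higher in cluster 3 in 4 of 4 libraries, as were 33.2% of all 9828 genes compared. These clusters were compared after their values had been seen, and the clusters came from other genes of the same cells.

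**Figure D3:**
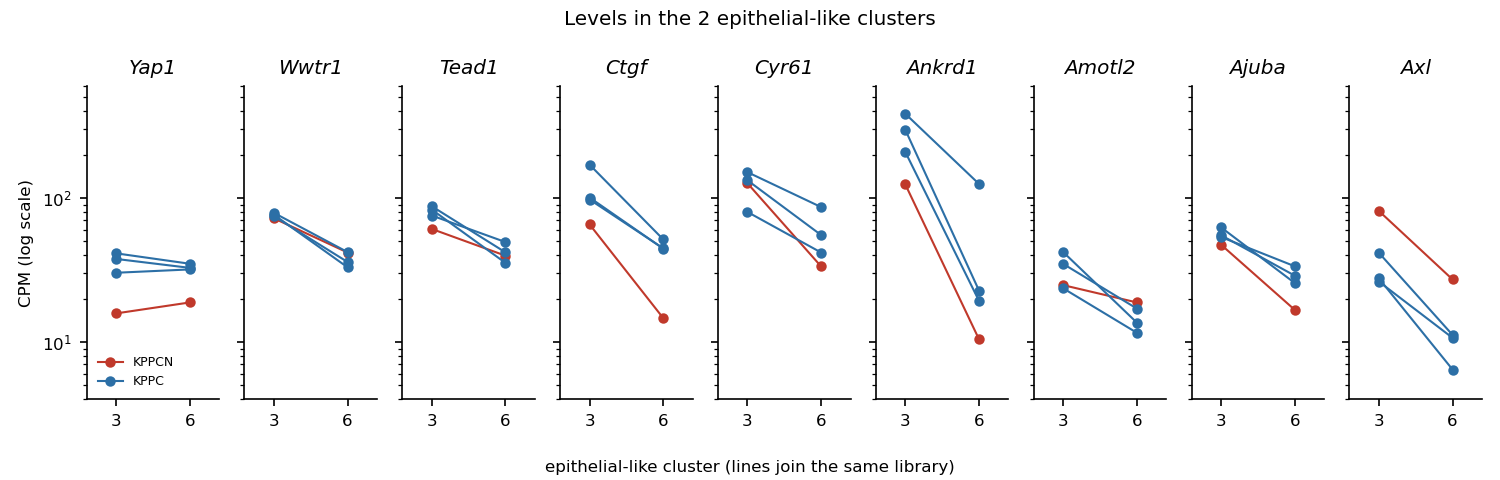
Level of each of the 9 genes in epithelial-like clusters 3 and 6, in CPM on a log axis, with the 4 libraries that held at least 20 cells of both joined by lines, KPPCN 1 in red and the KPPC libraries in blue. For 8 genes all 4 lines run higher in cluster 3, with wide gaps for Ankrd1 and Ctgf, and the lines of Yap1 are nearly level.

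Fibroblast-like clusters differed in fewer members. Ctgf had 214 and 115 CPM in KPPCN and 289, 244 and 143 CPM in KPPC cells of cluster 8, led by Col1a1 and Col1a2, against 45.4 and 65.6 CPM in KPPCN and 44.3, 22.6 and 53.5 CPM in KPPC cells of cluster 0, led by Dcn and Col3a1. Every value of cluster 8 lay above every value of cluster 0. Amotl2 had 39.9 and 102 CPM in KPPCN and 53.3, 65.4 and 86.7 CPM in KPPC cells of cluster 8, against 76.4 and 150 CPM in KPPCN and 108, 103 and 95.6 CPM in KPPC cells of cluster 0, lower within each library. Of the 9 members, 1 (Ctgf) was higher in cluster 8 in 5 of 5 libraries, as were 14.2% of all 9539 genes, and 2 (Amotl2 and Axl) were lower, as were 14.6%. The members therefore differed between these clusters about as often as other genes. This pair of clusters was also chosen after the values had been seen.

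The genotypes were then compared over all kept cells of a library. Of the 9 members Axl alone had both KPPCN libraries beyond all KPPC libraries, as 37.1% of all genes did. It had 186 and 333 CPM in KPPCN, compared with 180, 105 and 128 CPM in KPPC (exact permutation test, two-sided, p = 0.1, the smallest that 2 against 3 libraries can give). KPPCN 1 lay just above KPPC C3. With limma the log2 difference of Axl was 0.84 ± 0.33 (adjusted p = 0.294), and 0 of 9 members passed, where 0.00951% of all 10518 genes passed and 1769 genes had an unadjusted p under 0.05.

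Ankrd1 had 56.2 and 368 CPM in KPPCN, compared with 71.8, 117 and 46.1 CPM in KPPC, and Wwtr1 70.8 and 226 CPM in KPPCN, compared with 101, 80.5 and 79.8 CPM in KPPC. In both genes KPPCN 2 was far above the other 4 libraries and KPPCN 1 was among or below the KPPC libraries. Ctgf had 57.6 and 28.0 CPM in KPPCN, compared with 65.2, 52.9 and 65.0 CPM in KPPC, and here KPPCN 2 was the lowest. Without KPPCN 1, which leaves 1 KPPCN library that is assumed to vary as the others do, limma called Ankrd1 (2.18, adjusted p = 0.0354), Wwtr1 (1.26, adjusted p = 0.0181) and Ctgf (-1.06, adjusted p = 0.0206), among 3416 genes of 10435. Cyr61, Amotl2, Ajuba, Yap1 and Tead1 overlapped between genotypes over all cells. In such sums a change in the share of a cell type and a change in RNA per cell cannot be told apart.

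The origin of each gene's UMIs shows how far the cell types differed. Tumour-like cells gave 81.6% and 98.4% of the Ankrd1 UMIs in KPPCN 1 and 2, against 55.8%, 11.1% and 3.56% in KPPC C3, D3 and H2. Epithelial-like cells gave 4.15% and 0.320% of them in KPPCN, against 35.3%, 78.8% and 88.7% in KPPC. They made up 1.67% and 1.81% of kept cells in KPPCN, against 15.5%, 27.2% and 26.9% in KPPC. For Wwtr1 the tumour-like cells gave 38.2% and 92.5% in KPPCN, against 37.6%, 9.55% and 7.80% in KPPC. In KPPCN 2 tumour-like cells were thus the main source of both genes, in a library where they were 72.4% of cells. Fibroblast-like cells gave 74.1% and 37.1% of the Amotl2 UMIs in KPPCN, against 65.2%, 19.95% and 56.2% in KPPC. They made up 30.5% and 13.3% of kept cells in KPPCN, against 41.8%, 11.4% and 28.9% in KPPC. Tumour-like cells gave 32.1% and 49.3% of the Ctgf UMIs in KPPCN, against 6.39%, 4.87% and 1.88% in KPPC. In KPPCN 2 this was below their share of cells (72.4%). Of the UMIs of all genes, tumour-like cells held 5244725 of 25746317 and 41269849 of 51838953 in KPPCN 1 and 2. They held 16202763 of 77088231, 3901645 of 73698761 and 1520394 of 49942730 in KPPC C3, D3 and H2.

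**Figure D4:**
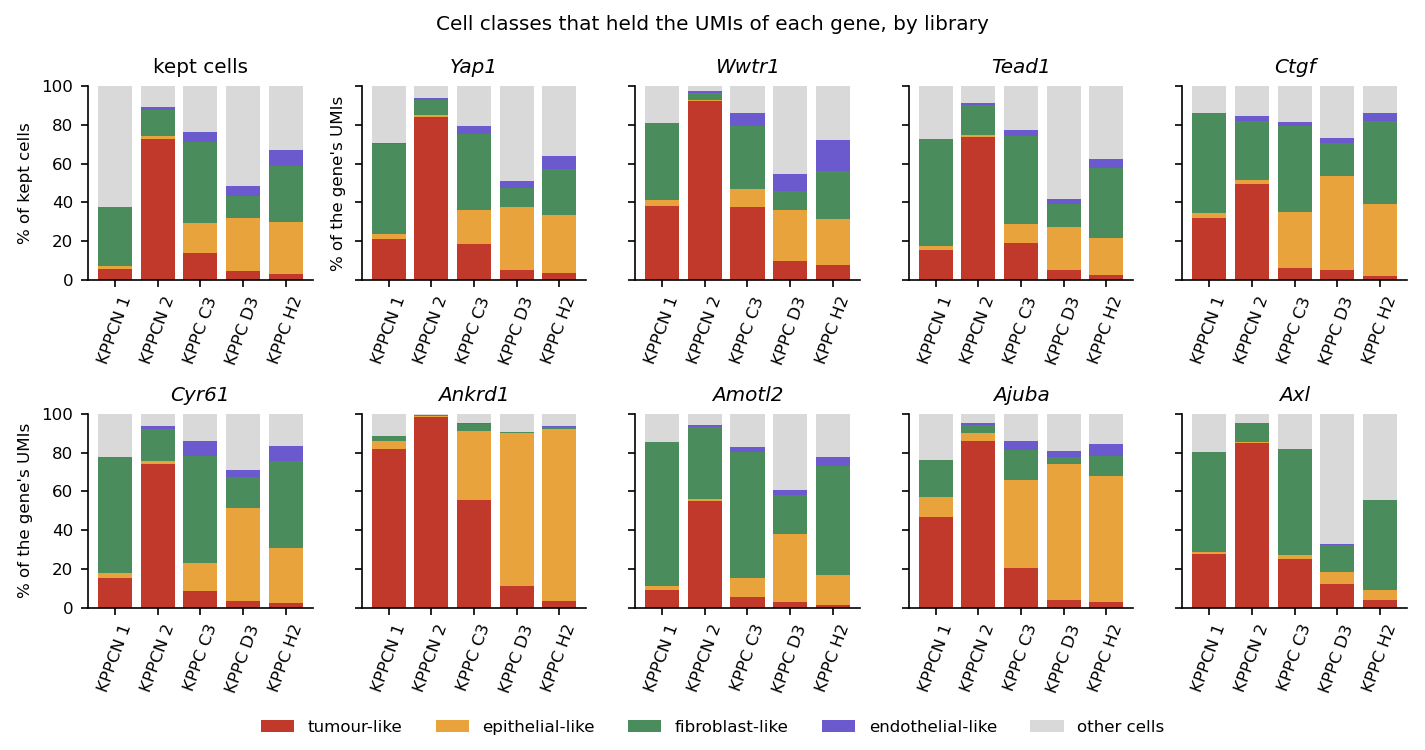
Share of each gene's UMIs that came from each cell class, in percent, as 1 stacked bar per library, KPPCN libraries to the left of KPPC libraries. Tumour-like cells give most Ankrd1 UMIs in KPPCN 1 (81.6%) and KPPCN 2 (98.4%), and epithelial-like cells give most of them in KPPC D3 (78.8%) and H2 (88.7%).

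Within the tumour-like class no member passed the test of KPPCN against KPPC (0 of 9, where 0.0% of all 9609 genes passed with limma and 673 had an unadjusted p under 0.05). Cyr61, Amotl2 and Axl had both KPPCN libraries above all KPPC libraries, 3 of 9 members, as 20.3% of all genes had both KPPCN libraries above or both below. Cyr61 had 78.6 and 126 CPM in KPPCN, compared with 46.4, 55.9 and 51.3 CPM in KPPC, with KPPC values close together and both KPPCN values clear of them. The means were 102 ± 33.8 CPM in KPPCN (SD, n = 2) and 51.2 ± 4.76 CPM in KPPC (n = 3). The log2 difference was 0.88 ± 0.23 (adjusted p = 0.684), and 1.15 without KPPCN 1 (adjusted p = 0.0430), when 138 genes rose and 184 fell.

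Axl averaged 305 ± 70.8 CPM in KPPCN and 210 ± 33.04 CPM in KPPC tumour-like cells, with a log2 difference of 0.48 ± 0.24 (adjusted p = 0.738). Amotl2 averaged 21.3 ± 4.45 CPM in KPPCN and 14.9 ± 1.47 CPM in KPPC (0.39 ± 0.19, adjusted p = 0.735). Neither passed the test. Ankrd1 averaged 340 ± 162 CPM in KPPCN and 163 ± 98.4 CPM in KPPC, with overlap, and a log2 difference of 1.12 ± 0.63 (adjusted p = 0.757). For Ctgf the KPPCN libraries took opposite ends, with 91.0 and 17.3 CPM in KPPCN, compared with 19.8, 48.7 and 40.1 CPM in KPPC (0.20 ± 0.64, adjusted p = 0.960). Leaving out 1 library at a time moved that value between -0.80 and 1.39.

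Many tumour-like cells of KPPCN 2 lay in a cluster with few cells of the other libraries, and the rest mostly in shared clusters. Cluster 9, led by glycolysis genes, Cdkn2a and Hmga2, had 813 of its 824 cells from KPPCN 2. Cluster 10 (638 cells), led by Krt18 and Cdkn2a, held 237 cells of KPPCN 1 and 5 of KPPCN 2, against 232, 110 and 54 of KPPC C3, D3 and H2. Cluster 12 (579 cells of low depth) held 18 and 312 cells of KPPCN 1 and 2, against 224, 12 and 13 of the KPPC libraries. Cluster 17 (400 cells) held 22 and 308 cells of KPPCN 1 and 2, against 42, 22 and 6 of the KPPC libraries. Within cluster 10, Cyr61 had 81.2 CPM in KPPCN 1, compared with 53.6, 63.1 and 61.8 CPM in KPPC, and Ankrd1 195 CPM in KPPCN 1, compared with 176, 227 and 62.6 CPM in KPPC. Within the cycling cluster 17, Cyr61 had 64.2 and 102 CPM in KPPCN, compared with 45.3 and 39.8 CPM in KPPC C3 and D3, and Ankrd1 350 and 522 CPM in KPPCN, compared with 247 and 319 CPM in KPPC. KPPCN values of both genes were the higher ones in cluster 17, and those of Cyr61 in cluster 10, while Ankrd1 overlapped in cluster 10. In cluster 17 Axl, Amotl2 and Ajuba were higher in KPPCN too, and Ctgf, Yap1, Wwtr1 and Tead1 overlapped. In cluster 10 Axl, Amotl2, Ajuba and Ctgf were also higher in KPPCN 1, and Yap1, Wwtr1 and Tead1 were lower. The share of all genes that lay apart in these clusters was not computed. KPPCN 1 and KPPC D3 held only 22 cells each in cluster 17. Median depth of tumour-like cells was 11390 and 24430 UMIs in KPPCN and 17180, 20080 and 16620 UMIs in KPPC, and dissociation genes summed to 4910 and 6012 CPM in KPPCN and 4497, 6757 and 5551 CPM in KPPC. The part of these in the values was not tested.

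Within epithelial-like cells Ctgf and Ankrd1 were below, and Axl above, all KPPC libraries in both KPPCN libraries, 3 of 9 members, where 33.6% of all genes lay apart. No member passed the test (0 of 9, where 0.0% of all 9888 genes passed with limma and 971 had an unadjusted p under 0.05). Ankrd1 had 65.2 and 87.9 CPM in KPPCN, compared with 138, 275 and 127 CPM in KPPC. The KPPCN values came from 60 and 61 UMIs, with 95% Poisson intervals of 49.8 to 84.0 and 67.2 to 113 CPM, which cover counting error only. The log2 difference was -1.15 ± 0.44 (adjusted p = 0.482).

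Ctgf had 39.1 and 44.7 CPM in KPPCN epithelial-like cells, from 36 and 31 UMIs, against 101, 76.9 and 74.8 CPM in KPPC. Its log2 difference was -0.95 ± 0.26 (adjusted p = 0.482). Axl had 53.3 and 57.6 CPM in KPPCN, from 49 and 40 UMIs, against 24.0, 19.7 and 18.5 CPM in KPPC (1.22 ± 0.19, adjusted p = 0.396). Within KPPCN 1 the epithelial-like level of Axl, 53.3 CPM, compares with 22.7 CPM in T/NK-like and 29.2 CPM in B/plasma-like cells. The KPPCN values rest on 86 and 36 cells.

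Other cell types were traceable in those cells. Summed endocrine markers had 3.26 and 31070 CPM in KPPCN, compared with 219, 394 and 140 CPM in KPPC, erythroid markers 3153 and 87.8 CPM in KPPCN, compared with 157, 0 and 6.39 CPM in KPPC, and fibroblast markers 1708 and 511 CPM in KPPCN, compared with 879, 366 and 251 CPM in KPPC. All 12 fibroblast markers were detected in every library except KPPCN 2, where Clec3b was at 0. Without 2 endocrine-rich cells of KPPCN 2 the log2 differences were -1.13 for Ankrd1, -0.91 for Ctgf and 1.20 for Axl. Median depth was 6470 and 14140 UMIs in KPPCN and 19240, 20090 and 19300 UMIs in KPPC. Dissociation genes summed to 6239 and 7512 CPM in KPPCN and 7994, 10460 and 6509 CPM in KPPC epithelial-like cells, and 3 of the 11 had a positive log2 difference (median -0.21, 0 of 11 past the threshold). The lowest were Atf3 (-1.18) and Dusp1 (-0.84), each with an adjusted p of 0.482 in limma. The part of these cells, of depth and of dissociation in the values was not tested.

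Within fibroblast-like cells the members were close between genotypes. Cyr61 had 186 and 220 CPM in KPPCN, compared with 167, 183 and 129 CPM in KPPC, and Axl 280 and 325 CPM in KPPCN, compared with 266, 192 and 239 CPM in KPPC. These were the 2 of 9 members with both KPPCN libraries beyond all KPPC libraries, where 26.0% of all genes lay apart, and in each the nearest libraries were close. The log2 differences were 0.33 ± 0.19 for Cyr61 (adjusted p = 0.611) and 0.36 ± 0.22 for Axl (adjusted p = 0.617). None of the 9 passed, where 0.0% of 9747 genes passed with limma and 819 had an unadjusted p under 0.05. Cluster 2 held 1269 of its 1301 cells from KPPCN 1, whereas most fibroblast-like cells of KPPCN 2 lay in clusters 0 (152 cells) and 8 (97 cells), which KPPC cells shared. Yap1, Wwtr1 and Tead1 had log2 differences of -0.09 ± 0.17, -0.15 ± 0.15 and -0.12 ± 0.21.

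**Figure D5:**
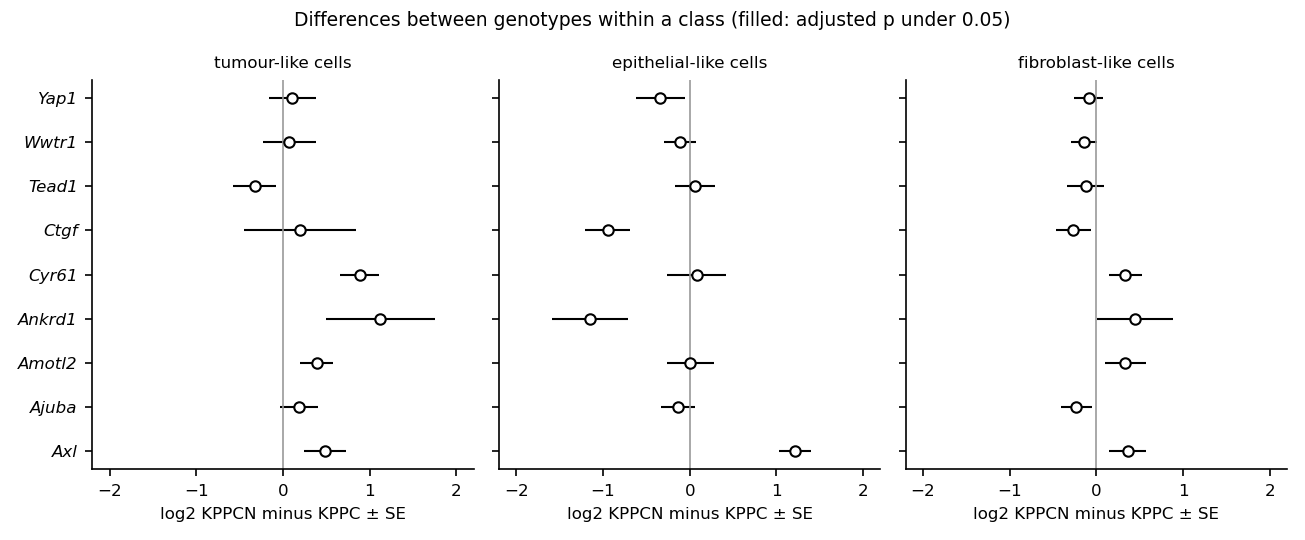
Log2 difference (± SE) of each of the 9 genes between KPPCN and KPPC in tumour-like, epithelial-like and fibroblast-like cells, with filled points where the adjusted p was under 0.05. No point is filled, and the signs for Ankrd1 differ between tumour-like (1.12) and epithelial-like cells (-1.15).

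Whether the genotype difference itself differed between tumour-like and epithelial-like cells was tested as an interaction in 1 fit. Ankrd1 had an interaction of 2.24 ± 0.52 on the log2 scale (adjusted p = 0.537 in limma), with higher values in KPPCN in 1 class and lower ones in the other. Ctgf had 1.47 ± 0.68 (adjusted p = 0.688), Cyr61 0.83 ± 0.26 (adjusted p = 0.654) and Axl -0.72 ± 0.25 (adjusted p = 0.656). None of the 9 members passed, where 0.0% of all 10011 genes passed and 744 had an unadjusted p under 0.05.

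None of the listed pathway genes passed in any genotype comparison. The widest statistics in tumour-like cells belonged to the kinase gene Lats1 (-0.73 ± 0.18, adjusted p = 0.684) and to Nt5e (0.95 ± 0.37, adjusted p = 0.701), and in epithelial-like cells to Taok3 (0.44 ± 0.14, adjusted p = 0.482) and Fjx1, a secreted kinase-like modifier of Fat signalling (-1.36 ± 0.47, adjusted p = 0.482). Over all cells Crim1 (-0.67 ± 0.13, adjusted p = 0.115) and F3 (-1.37 ± 0.29, adjusted p = 0.123) led among targets, and in fibroblast-like cells Nt5e (-0.50 ± 0.19, adjusted p = 0.571). The median log2 difference of the 16 targets tested was 0.059 in tumour-like, -0.13 in epithelial-like and -0.23 in fibroblast-like cells.

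Across 57 sums of a library and class, from 17 classes, the members were correlated with each other on the log2 scale, as a description of points that share libraries and depth. All 36 pairs had a positive Pearson r, with a median of 0.50. The sums included T/NK-like, B/plasma-like, neutrophil-like and erythroid-like cells, in which most members were low. The same values over pairs of all genes were not computed, so these are no measure of how far the pathway moves together. Yap1 and Tead1 were most alike (r = 0.85), followed by Cyr61 and Amotl2 (0.80), while Ankrd1 was nearly unrelated to Tead1 (0.02) and Amotl2 (0.03). Among all genes, the pattern of Axl was most like that of Meg3 (0.89), Sdc2 (0.87) and Twist1 (0.87), and that of Wwtr1 most like Amotl1 (0.84), Ppfibp1 (0.84) and Lamb1 (0.83). Cyr61 was most like Amotl1 (0.81) and Amotl2 (0.80) and then Ankrd46 (0.79), and Tead1 most like Kifap3 (0.86), Dag1 (0.86) and Yap1 (0.85).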

How the data were processed

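The authors deposited 1 table of cells per genotype on a natural log scale: each value is ln(1 + x), where x is the gene's UMIs per 10000 UMIs of the cell. The submitters' processing notes name GRCm38, Seurat 3.0.2, R 3.5.1 and Cell Ranger 2.1.0. Whole UMIs were recovered from the steps of each cell (100% within 0.01 UMI). All columns were assigned to a library or genotype (0 left over), and only genes in both tables were used. Sums of the recovered UMIs were tested with limma, and a count model was not used.

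Kept cells had 500 or more genes and no more than 20% of UMIs from mitochondrial genes. The doublet caller's own threshold marked 1 to 26 cells per library, so the highest-scoring cells at an expected rate of 0.8% per 1000 cells were left out instead. Clustering in scanpy 1.11.5 under Python 3.11.15 used 2000 variable genes, 30 components, 20 neighbours and leidenalg 0.10.2 at resolution 1. UMIs were summed per library and class. Genes needed at least 10 UMIs at the median depth in 50% of the sums and a mean of 5 CPM, which all 9 members passed. limma 3.58.1 (R 4.3.3) used trimmed-mean scaling, precision weights from counting, a trend, and a threshold of 0.05. Differences on log2(CPM + 5) understate the change of low genes. It was tested on simulated data. Rules for naming clusters were set after clusters had been seen.

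The members, marker lists and pathway lists were chosen with earlier results of these data known. All 9 members are named in every comparison, and of the other lists up to 8 genes past the threshold by size or, where none passed, up to 4 per list by their statistic, of which the widest are given. Fat4 and Foxf2 were listed in the KPPCN table only and not tested. Alternatives were the pseudocount, scaling, filter, weights, depth, clustering and each library left out. An allele that both genotypes share is not reported here.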

Additional observations from a re-analysis of the deposited data

How the results depend on the processing

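Of 21 member differences called between classes, 0 reversed under any alternative. Of 412 values under alternatives, 380 stayed called in the same direction, or stayed uncalled within 1 SE of the main value. A further 19 no longer passed, 10 newly passed and 3 moved otherwise. Most of these were Cyr61 and Tead1 in tumour-like against epithelial-like cells. Between genotypes 4 of 633 values passed, all without KPPCN 1. No paired analysis was possible between genotypes, because the KPPC columns carry no replicate numbers and the labels state no pairing of mice. The comparisons between classes were made within libraries.

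Thinning each cell to 1000 UMIs changed the counts of genes called: 105 over all cells, 9 in epithelial-like, 1 in tumour-like and 4 in fibroblast-like cells for genotype, 3 for the interaction, 964 for tumour-like against epithelial-like, 3367 for fibroblast-like against epithelial-like and 2393 for tumour-like against fibroblast-like cells. Without scaling 3 genes were called over all cells. At clustering resolution 2, with KPPCN 2 below 20 cells, 2 were called in epithelial-like cells. Leaving out 1 library gave 0 to 3416 genes over all cells, 0 to 5 in epithelial-like, 0 to 322 in tumour-like and 0 to 29 in fibroblast-like cells, and 0 to 7 for the interaction.

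Over all cells, the log2 ratio of mean levels of Amotl2 reversed to 0.13 without leukocyte-like cells. With 1 library left out it ran from -0.23 to 0.23 for Amotl2, -0.48 to 2.23 for Ankrd1, -0.47 to 0.53 for Yap1 and -0.30 to 1.38 for Wwtr1, with a reversal without KPPCN 2 in each and, for Amotl2, also without KPPC C3. The cause of these changes was not tested. Depth limits the epithelial-like values of KPPCN, which rest on 86 and 36 cells.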

Other observations

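Clusters that no marker list named entered no comparison between classes, and their levels are given as values. Cluster 7 (824 cells), led by Timp1 and Timp3, had Axl at 127 to 213 CPM, Tead1 at 58.4 to 119 CPM, Ctgf at 33.3 to 98.5 CPM and Ankrd1 at 21.0 to 98.1 CPM over 5 libraries. Cluster 5 (1055 cells), led by Saa3 and Dcn, had Axl at 122 to 168 CPM and Tead1 at 106 to 145 CPM but Ctgf at 4.27 to 7.64 CPM and Ankrd1 at 2.47 to 15.3 CPM over 4 libraries. The ranges of Ctgf in these clusters did not overlap. Cluster 14 (462 cells, all from KPPCN 1), led by Saa3, C3 and Enpp2, had Ctgf at 7.51 CPM and Axl at 118 CPM. Cluster 19 (179 cells), led by Krt18 and Clu, had 0.110 of the median depth of its libraries, and showed Ankrd1 at 100 to 405 CPM and Ctgf at 50.1 to 178 CPM over 3 libraries.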
